A study of Rattus norvegicus with 2 samples.

Results

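The genes described here are the BTG/TOB antiproliferative genes Btg1, Btg2, Btg3, Tob1 and Tob2 and the cyclin-dependent kinase (CDK) inhibitor genes Cdkn1a, Cdkn1b, Cdkn1c, Cdkn2c and Cdkn2d. They were picked by symbol with earlier results of these data in view, so their differences are given as descriptions that no test supports. Of the 10 listed genes, 9 were found with read counts among the 16846 gene symbols in the deposited table. Cdkn2d was not found under that symbol. Its level was therefore not analysed here, and this gene enters only the search of promoter windows. The study set cultures transduced with adeno-associated virus (AAV, serotype 2/9) with short hairpins against the miR-99/100 and let-7 families (the anti-miR library) against a control. The control is an AAV with no insert by its treatment tag and a mock transduction by the protocol text. Both came from ventricles of rats at postnatal day 0, plated as cardiomyocytes after a preplating step, and treatment lasted 7 days. Each group is 1 strand-specific poly(A) RNA-seq library, with 14815846 reads on genes in the anti-miR library and 16031780 in the control library. No strain and no number of pooled animals was found in the labels.

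BTG and TOB proteins share an N-terminal domain through which they bind the CAF1 deadenylases of the CCR4-NOT complex, which shorten poly(A) tails, and when overexpressed they slow entry into S phase. CDK inhibitors act on the kinases of the same step. Cip/Kip proteins (p21, p27 and p57) bind cyclin-CDK complexes, and INK4 proteins bind Cdk4 and Cdk6 and keep D-type cyclins from activating them. In the heart, p21, p27 and p57 are known for their presence in cardiomyocytes around the time these cells leave the cell cycle.

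The miRNA families aimed at fall into 2 seed groups. Mature sequences are those of RefSeq (build GRCr8), with the seed, bases 2 to 8, in capitals, and members of both families are shown because these families are what the hairpins were made against.
rno-let-7a-5p: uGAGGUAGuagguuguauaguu
rno-let-7c-5p: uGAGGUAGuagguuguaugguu
rno-miR-99b-5p: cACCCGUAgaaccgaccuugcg
rno-miR-100-5p: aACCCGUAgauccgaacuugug
The let-7 pair shares the seed GAGGUAG and the miR-99/100 pair the seed ACCCGUA. Mature miRNAs are not captured by poly(A) selection. Among the 14 measured hairpin genes of these families, 9 had 0 reads in both libraries, and none reached a mean of 1 read per 1000000 (RPM), so the knockdown could not be checked.

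Levels are RPM unless said otherwise, with the column's deposited total set to 1000000. Comparisons of level between genes use RPM per 1000 bases of transcript (RPKM). Both cultures are labelled cardiomyocytes, but fibroblast and leukocyte markers far outweighed cardiomyocyte markers in both libraries. The 10 fibroblast markers summed to 103871 RPM in the anti-miR and 102430 RPM in the control library. The 12 leukocyte markers summed to 8581 RPM in the anti-miR and 7832 RPM in the control library, with Cd163 at 0 reads in both. Lyz2 alone had 3937 RPM in the anti-miR and 2937 RPM in the control library. Of the 11 leukocyte markers of at least 1 RPM, 6 had a ratio of anti-miR over control above 1 and 5 had one below it. The 15 cardiomyocyte markers measured summed to 289 RPM in the anti-miR and 254 RPM in the control library. Of these, 2 had 0 reads in the anti-miR library and 6 in the control library, with Myl7 and Nkx2-5 at 0 in both. Myh6 had 23 reads in the anti-miR and 0 in the control library, while Myl2 had 5 in the anti-miR and 30 in the control library. Endothelial markers summed to 87.8 RPM in the anti-miR and 57.8 RPM in the control library, with Emcn at 0 reads in both. Flt1 supplied the most, 44.9 RPM in the anti-miR and 24.7 RPM in the control library. Of the 6 of at least 1 RPM, 4 had a ratio above 1 and 2 had one below it. Pecam1 had 50 reads in the anti-miR and 0 in the control library, while Vwf had 3 in the anti-miR and 47 in the control library. Smooth muscle and pericyte markers summed to 2693 RPM in the anti-miR and 2788 RPM in the control library. Epicardial markers summed to 96.5 RPM in the anti-miR and 81.8 RPM in the control library. Of these 4, only Aldh1a2 was higher, with 85.7 RPM in the anti-miR and 67.5 RPM in the control library, and 3 were lower. Erythroid and glial markers summed to 19.1 RPM in the anti-miR and 16.7 RPM in the control library, with Alas2 and Hbb at 0 reads in both. The part of cell makeup in the differences below was not tested, and in a bulk library fewer cells of a type and less RNA per cell cannot be told apart.

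Transcripts of Btg2, Tob1, Btg1 and Cdkn1a were lower in the anti-miR library, while those of Btg3 and Tob2 were at nearly the same level in both. Cdkn1b was slightly lower, and the scarce Cdkn2c and Cdkn1c were higher. At a fold of 1.5 on the scale log2((anti-miR + 0.1)/(control + 0.1)) of RPM, 2 of 9 genes, Btg2 and Tob1, were lower and 1, Cdkn1c, was higher. Among all 10365 genes averaging 1 RPM or more, 8.56% were that much lower and 10.8% that much higher. With a floor of 10 RPM, which leaves out Cdkn1c, 2 of 8 were lower and 0 higher, beside 3.62% and 5.43% of 7935 genes. The median log2 ratio of the 9 was −0.21, and that of the 10365 genes was 0.03. Because the genes were picked from this same contrast, nothing is read from these counts.

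Per 1000 bases, Cdkn1a and Btg1 were the most abundant of the 9 in both libraries. In the anti-miR library the order of level ran Cdkn1a at 118 RPKM, Btg1 at 90.5, Btg3 at 57.5, Cdkn1b at 35.1, Tob1 at 28.3, Btg2 at 21.8, Tob2 at 15.4, Cdkn2c at 9.93 and Cdkn1c at 2.26. No neighbours in that order had overlapping 95% counting intervals. In the control library it ran Cdkn1a at 162 RPKM, Btg1 at 123, Btg3 at 57.1, Tob1 at 46.9, Btg2 at 43.2, Cdkn1b at 40.7, Tob2 at 14.8, Cdkn2c at 7.17 and Cdkn1c at 0.917. There the intervals of Tob1 and Btg2 overlapped, as did those of Btg2 and Cdkn1b. Cdkn1b stood above Tob1 and Btg2 in the anti-miR library. In the control library it was listed below both, with an interval that overlapped that of Btg2. These intervals hold the counting error alone, as no molecular identifiers are described and reads need not be independent molecules, and with 1 library per group no spread between cultures is known.

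**Figure D1:**
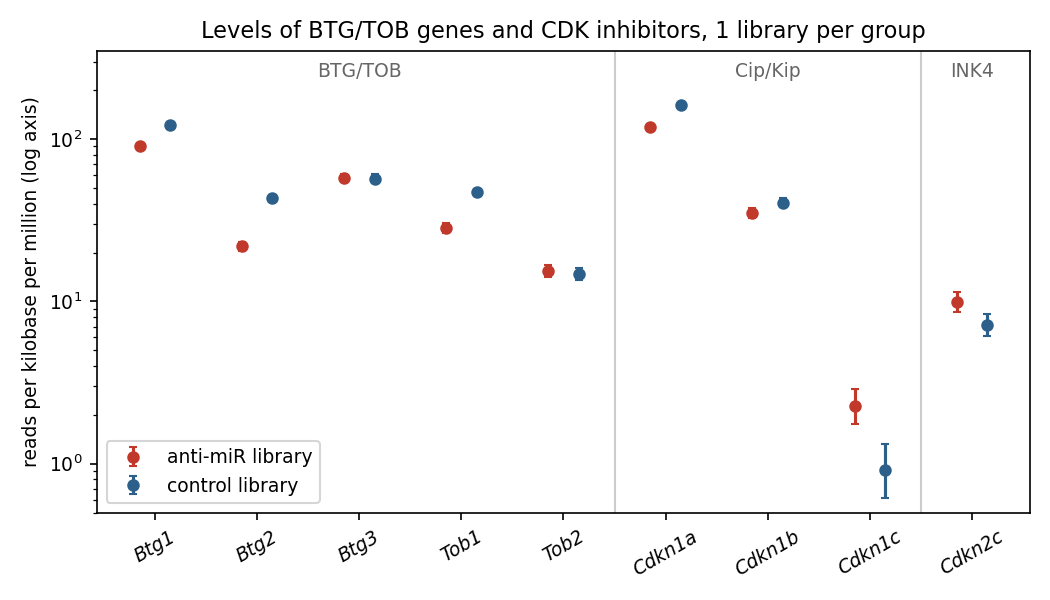
Level of each gene in reads per 1000 bases per 1000000 (log axis), with 1 point for the anti-miR library (red, left) and 1 for the control library (blue, right) and bars for the exact 95% Poisson interval of the reads. Btg2 stands at 21.8 in the anti-miR and 43.2 in the control library, while Btg3 (57.5 in the anti-miR and 57.1 in the control library) and Tob2 (15.4 in the anti-miR and 14.8 in the control library) lie nearly level.

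Among the BTG/TOB genes, Btg2 differed most. Btg2 (NM_017259, rn4 chromosome 13, 47026986 to 47030745, minus strand) is known as a gene induced within minutes to hours of growth factor stimulation. It had 808 reads, 54.5 RPM, in the anti-miR library and 1729 reads, 108 RPM, in the control library. The anti-miR level was about 49.4% below the control level, that is 0.506 of it (counting interval 0.465 to 0.550) and −0.98 on the log2 scale. None of the 500 genes nearest to Btg2 in level (0 of 500) had a ratio as low, and their central 95% spanned −0.45 to 0.47. Of the 7935 genes of at least 10 RPM, 39 had a log2 ratio as low as that of Btg2, itself included.

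Tob1 (NM_133317, rn4 chromosome 10, 82852405 to 82854440, plus strand), which binds both the CAF1 deadenylases and poly(A)-binding protein, came next. It had 853 reads, 57.6 RPM, in the anti-miR library and 1529 reads, 95.4 RPM, in the control library, so the anti-miR library was the lower one. The ratio was 0.604 (0.555 to 0.657), or −0.73 in log2, and 2 of the 500 genes nearest in level had a ratio as low. Tob2 (NM_001007146, rn4 chromosome 7, 120200829 to 120209535, minus strand), its closest relative, had 519 reads, 35.03 RPM, in the anti-miR library and 537 reads, 33.5 RPM, in the control library. Its ratio of 1.05 had a counting interval of 0.925 to 1.18, so no difference was detectable at this depth. Within the libraries, Tob1 stood 1.83 times as high as Tob2 per 1000 bases in the anti-miR and 3.18 times as high in the control, quotients that no scaling between libraries can move.

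Btg1 (NM_017258, rn4 chromosome 7, 34029300 to 34031557, plus strand), the closest relative of Btg2, is known for high levels in quiescent cells. It had 1954 reads, 132 RPM, in the anti-miR library and 2870 reads, 179 RPM, in the control library. The anti-miR level was lower, at 0.737 of the control (0.695 to 0.781), or −0.44 in log2. That lies short of 1.5-fold but below the −0.32 to 0.37 of its like-level genes, of which 4 of 500 had a ratio as low. Btg3 (NM_019290, rn4 chromosome 11, 17241627 to 17257740, minus strand), the more distant BTG member, had 1037 reads, 70.0 RPM, in the anti-miR library and 1115 reads, 69.5 RPM, in the control library. Its ratio of 1.01 (0.924 to 1.10) showed no difference detectable at this depth, and its log2 ratio of 0.01 turned to −0.02 at the lowest of the other scalings. Per 1000 bases, Btg2 stood at 0.380 times Btg3 in the anti-miR and 0.756 times in the control library. Btg1 stood at 1.57 times Btg3 in the anti-miR and 2.15 times in the control library.

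As a family, the 5 BTG/TOB genes summed to 214 RPKM in the anti-miR and 285 RPKM in the control library. Their median log2 ratio was −0.44, which is the value of Btg1. The makeup of the sum differed. Btg2 supplied 10.2% of it in the anti-miR and 15.2% in the control library, and Tob1 13.3% in the anti-miR and 16.5% in the control library. Btg3 supplied 26.9% in the anti-miR and 20.1% in the control library, and Tob2 7.23% in the anti-miR and 5.19% in the control library. Btg1 supplied the most in both, 42.4% in the anti-miR and 43.1% in the control library. Btg4, the remaining BTG gene, whose known role is in oocytes and early embryos, had 0 reads in both libraries, which allows up to 0.202 RPM in the anti-miR and 0.187 RPM in the control library (3 reads each).

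Promoter windows are shown for Btg2 and Tob1, which differed by more than 1.5-fold, and for their relatives Btg3 and Tob2, which did not. Each runs from 250 bases before to 50 after the gene start in RefSeq (build GRCr8, not the rn4 of the read counts) and is written 5′ to 3′ on the gene's strand. That start is the annotated one and was not checked against where transcription begins, so a window need not be a promoter. In the Btg1 window, which is not printed, the 50 bases after the start open with ATG, the letters of a start codon. In the Tob1 window the 250 bases before the start end with a T-rich run and AG, the letters at the end of an intron. The GC content and motif match of the Tob1 window may thus not be those of a promoter. Capitals mark matches, on either strand, to the TATA box as TATAAA, the CCAAT box, the GC box as GGGCGG, the cyclic AMP response element as TGACGTCA, the AP-1 element as TGACTCA, a forkhead element as GTAAACA, or the CArG box of serum response factor.
Btg2, chr13:48087641-48087940, minus strand: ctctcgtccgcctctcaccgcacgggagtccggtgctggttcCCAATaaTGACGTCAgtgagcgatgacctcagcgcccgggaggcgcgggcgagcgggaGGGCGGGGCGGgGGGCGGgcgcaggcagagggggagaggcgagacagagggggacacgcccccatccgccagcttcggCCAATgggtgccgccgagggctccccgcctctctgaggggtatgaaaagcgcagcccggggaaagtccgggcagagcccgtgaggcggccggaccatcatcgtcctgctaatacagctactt
Tob1, chr10:79659743-79660042, plus strand: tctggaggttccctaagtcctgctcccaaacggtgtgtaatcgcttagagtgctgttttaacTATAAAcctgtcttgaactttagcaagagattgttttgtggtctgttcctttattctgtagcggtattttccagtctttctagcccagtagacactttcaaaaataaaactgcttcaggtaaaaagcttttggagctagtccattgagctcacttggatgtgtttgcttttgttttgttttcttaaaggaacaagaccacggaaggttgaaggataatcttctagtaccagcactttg
Btg3, chr11:30532932-30533231, minus strand: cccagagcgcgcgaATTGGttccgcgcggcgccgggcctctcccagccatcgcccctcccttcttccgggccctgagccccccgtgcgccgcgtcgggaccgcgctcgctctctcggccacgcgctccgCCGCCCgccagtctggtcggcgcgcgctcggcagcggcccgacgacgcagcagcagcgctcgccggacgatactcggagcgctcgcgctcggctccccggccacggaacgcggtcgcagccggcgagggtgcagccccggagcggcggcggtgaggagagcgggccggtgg
Tob2, chr7:115251514-115251813, minus strand: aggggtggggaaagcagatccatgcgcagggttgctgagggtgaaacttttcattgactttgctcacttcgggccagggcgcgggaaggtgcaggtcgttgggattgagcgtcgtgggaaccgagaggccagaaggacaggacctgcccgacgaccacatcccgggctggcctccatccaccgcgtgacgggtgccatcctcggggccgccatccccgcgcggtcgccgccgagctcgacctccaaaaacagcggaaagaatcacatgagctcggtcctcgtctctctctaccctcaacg
The Btg2 window holds 1 TGACGTCA, beginning 201 bases before the start, with 2 bases between it and an upstream CCAAT. It also holds a second CCAAT that begins 72 bases before the start and 3 GGGCGG, the nearest beginning 138 bases before it, of which the farther 2 overlap by 1 base. TGACGTCA occurs in 1.83% of the 33469 RefSeq promoter windows and in no other of the 9 windows found for the listed genes, which include that of Cdkn2d and not that of Cdkn1c. The Tob1 window, with a GC content of 40.0% against 69.7% for Btg2, holds 1 TATAAA, 188 bases before the start, a motif in 14.2% of all windows. The Btg3 window holds 1 CCAAT and 1 GGGCGG, found in 37.5% and 33.1% of all windows, and the Tob2 window holds no match. No window of the 9 holds the AP-1 element, the forkhead element or the CArG box, which are in 4.63%, 3.78% and 1.64% of all windows. Btg1 has 3 GGGCGG, Cdkn1b 1 GGGCGG and 2 CCAAT, and Cdkn2c 1 GGGCGG, while Cdkn1a has no match. Cdkn2d, an INK4 gene with no level here, has 5 GGGCGG, the most of the 9. Because the starts were not checked, nothing is read from the lack of a match in the Cdkn1a window. Of the genes lower in the anti-miR library, Btg1, Btg2 and Cdkn1b had GGGCGG in their windows, and Btg2 and Cdkn1b had CCAAT. Btg3 and Cdkn2c, which were not lower, had GGGCGG too, and Btg3 had CCAAT. A match is a description of letters, not a site.

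**Figure D2:**
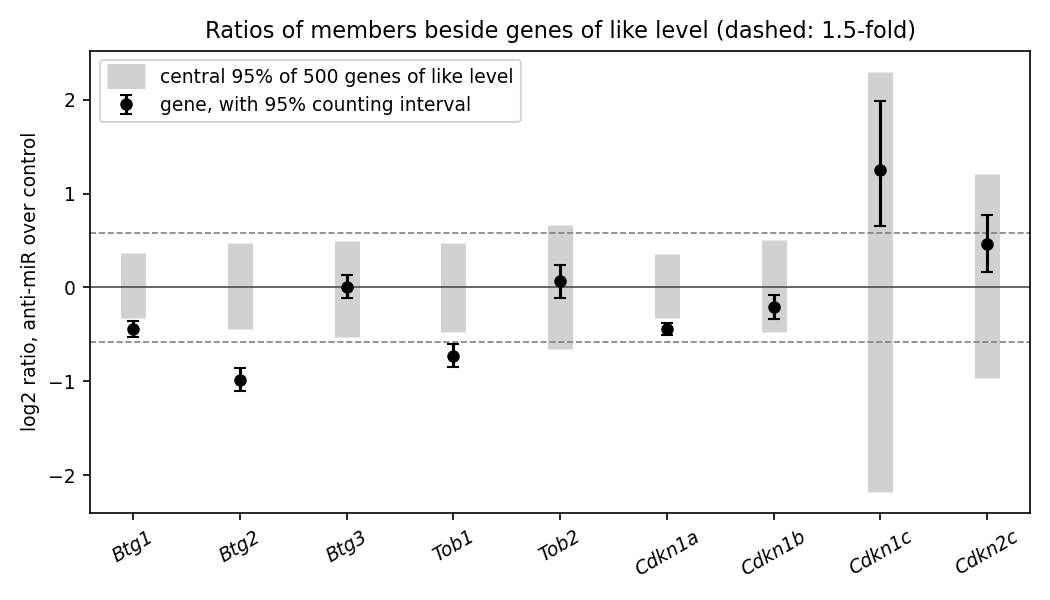
Log2 ratio of anti-miR over control RPM for each gene (points, with bars for the exact 95% counting interval of the ratio) over grey bars for the central 95% of the 500 genes nearest in level, and dashed lines mark 1.5-fold. Btg1, Btg2, Tob1 and Cdkn1a lie below their grey bars, and Cdkn1c at 1.25 lies inside its own, −2.18 to 2.30.

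Of the Cip/Kip genes, Cdkn1a (NM_080782, rn4 chromosome 20, 7376325 to 7386778, plus strand), encoding p21, was the most abundant. It had 3269 reads, 221 RPM, in the anti-miR library and 4825 reads, 301 RPM, in the control library. The anti-miR level was the lower one, at 0.733 of the control (0.701 to 0.767), or −0.45 in log2, close to the ratio of Btg1 and likewise short of 1.5-fold. Of its 500 like-level genes 6 had a ratio as low. Cdkn1b (NM_031762, rn4 chromosome 4, 171841705 to 171846506, plus strand), encoding p27, had 909 reads, 61.4 RPM, in the anti-miR library and 1140 reads, 71.1 RPM, in the control library. Its ratio of 0.863 (0.790 to 0.942) left the counting interval below 1, but 100 of 500 like-level genes had a ratio as low. Cdkn1a stood 3.38 times as high as Cdkn1b per 1000 bases in the anti-miR and 3.97 times in the control library.

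Cdkn1c (NM_001033757, rn4 chromosome 1, 203835215 to 203837843, minus strand), the gene of p57, imprinted in mouse and human, was scarce. It had 66 reads, 4.45 RPM, in the anti-miR library and 29 reads, 1.81 RPM, in the control library, the reverse direction of Cdkn1a and Cdkn1b. The ratio of 2.46 carried a wide counting interval, 1.57 to 3.95, and 70 of the 500 genes nearest in level had a ratio as high. The Cip/Kip genes summed to 156 RPKM in the anti-miR and 203 RPKM in the control library, a ratio of 0.767. In the anti-miR library Cdkn1a supplied 76.0% of the sum, Cdkn1b 22.5% and Cdkn1c 1.45%. In the control library Cdkn1a supplied 79.5%, Cdkn1b 20.0% and Cdkn1c 0.451%.

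Of the INK4 genes, Cdkn2c (NM_131902, rn4 chromosome 5, 131012525 to 131017679, minus strand), encoding p18, had 210 reads, 14.2 RPM, in the anti-miR library and 164 reads, 10.2 RPM, in the control library. The anti-miR level was higher, with a ratio of 1.39 (1.12 to 1.71), and 103 of 500 like-level genes had a ratio as high. The 4 CDK inhibitors had a median log2 ratio of 0.13, and with a floor of 10 RPM, which drops Cdkn1c, the median of the other 3 was −0.21. The INK4 relatives outside the 10 differed from each other. Cdkn2b, encoding p15, had 114 RPM in the anti-miR and 154 RPM in the control library, a ratio of 0.737 (0.693 to 0.785) that lay near those of Btg1 and Cdkn1a. Cdkn2a had 20.2 RPM in the anti-miR and 19.6 RPM in the control library, a ratio of 1.03 (0.877 to 1.21), and its reads cannot be split between p16 and the alternative product Arf. Of 7 relatives above the floor, which also include Cdkn3 and Cdk2ap1 (highest by rule, 116 RPM in the anti-miR and 94.9 RPM in the control library), 1, Cdkn3 at 0.73, was at least 1.5-fold higher and 0 lower, beside 10.8% and 8.56% of all genes. Their median was 0.06.

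By counting alone, 5 of the 9 genes had an interval below 1 (Btg1, Btg2, Tob1, Cdkn1a and Cdkn1b) and 2 had one above it (Cdkn1c and Cdkn2c). Of all genes of at least 1 RPM, 28.1% had an interval below 1 and 33.6% one above it, so at this depth a counting interval clear of 1 is common. An exact binomial test on the reads, adjusted over all genes, sets the libraries and not the conditions against each other. It called 5 of the 9 lower and 2 higher, beside 26.2% and 31.5% of all genes, and as the genes were picked from these values nothing is read from it. At a fold of 2 none of the 9 was lower (0 of 9, beside 3.56% of all genes) and Cdkn1c was higher (beside 4.85%). Btg2 is at the edge of that fold, and under TMM or median-of-ratios scaling its log2 ratio of −1.01 passed it. In all, 4 of the 9 genes lay below the central 95% of their like-level genes, as 2.7% of all genes did, and 0 lay above it, as 2.56% did. Since the genes were picked with these ratios in view, nothing is read from this count either. None of the 9 overlapped another gene of the table on rn4. The nearest neighbour was Cxadr, 78 bases from Btg3 and on the opposite strand.

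**Figure D3:**
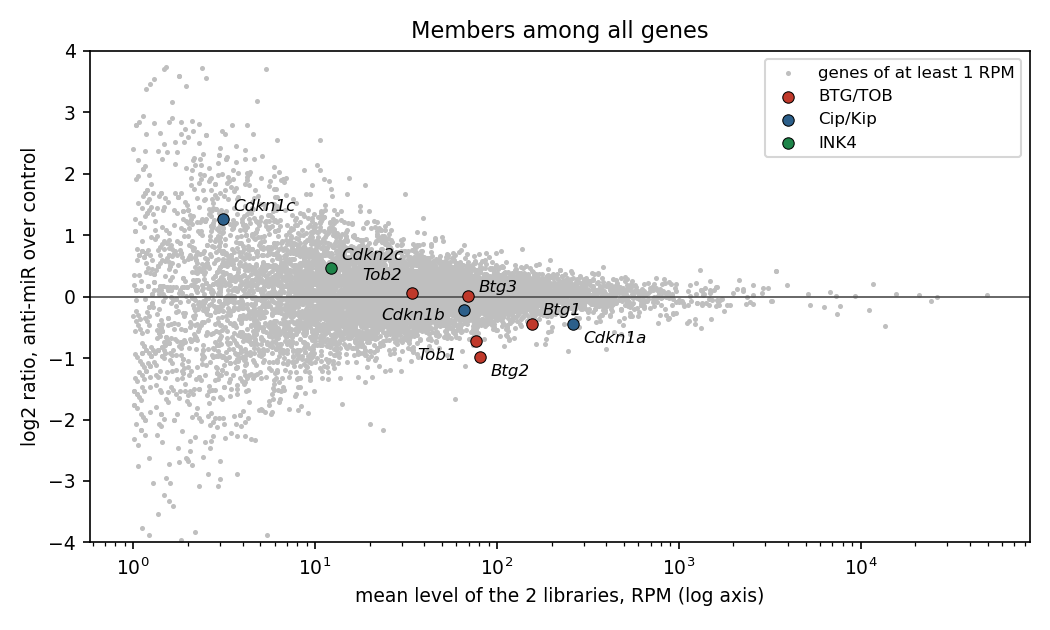
Mean RPM of the libraries (log axis) against the log2 ratio of anti-miR over control for 10365 genes of at least 1 RPM (grey), with the members coloured by family. Tob1 and Btg2 lie at the lower edge of genes near 80 RPM, Cdkn1c lies in the wide scatter of scarce genes, and 84 genes fall outside the axis limits of −4 and 4.

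The partners and targets of these proteins were measured in the same libraries. Symbols given with values below follow a rule for each list, the highest and lowest ratio among genes of at least 5 RPM and the most abundant gene per 1000 bases. Ccna1, Cdk2, Cnot7, Cnot8, Nr4a1 and Egr2, as well as Myh6, Myl2, Flt1, Pecam1, Vwf, Cdkn2a and Cdkn3 above, were chosen after their values were seen. Past 1.5-fold, 4 of 13 cyclins and CDKs above 1 RPM were higher and 0 lower, beside 10.8% and 8.56% of all genes, and the median log2 ratio was 0.15. The 4 were Ccna1, Ccna2, Ccnb1 and Cdk1. Ccna1 had only 26 reads in the anti-miR and 18 in the control library, with a counting interval of 0.825 to 3.03 that includes 1. Cdk1, the mitotic kinase, had 33.5 RPM in the anti-miR and 15.03 RPM in the control library, and Ccnd2, cyclin D2, was lowest at −0.47. Cdk4, the main kinase bound by INK4 proteins and the most abundant of the list, had 126 RPM in both libraries. Cdk2, a kinase inhibited by p21 and p27, had 21.3 RPM in the anti-miR and 16.4 RPM in the control library, a ratio of 1.30 (1.10 to 1.54). Cdkn1a transcripts per 1000 bases were 12.1 times those of Cdk2 in the anti-miR and 21.5 times in the control library. Cdkn1b transcripts were 3.59 times those of Cdk2 in the anti-miR and 5.42 times in the control library. Cdkn1a stood at 0.772 times Cdk4 in the anti-miR and 1.06 times in the control library. Cdkn2c, which binds Cdk4, went the other way, with 0.0648 times Cdk4 in the anti-miR and 0.0471 times in the control library.

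Most mitotic genes were higher, the direction opposite to Btg2, Tob1, Btg1 and Cdkn1a. The anti-miR library had 16 of the 25 above the floor at 1.5-fold or more over the control and 1, Bub1, at 1.5-fold or more under it, beside 10.8% and 8.56% of all genes, and the median was 0.70. The list shares Cdk1, Ccnb1 and Ccnb2 with the cyclins and CDKs, and its higher level was known when the genes were picked. Racgap1, of the cytokinetic spindle, was highest at 1.67. Among 11 pocket protein, E2F and DREAM genes 3 were higher and 2 lower, beside the same shares of all genes, with E2f1, the S phase activator, at 0.80, Lin37, a DREAM subunit, at −0.95 and the repressor E2f4 at −0.20. Their median was −0.01.

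BTG/TOB proteins act through deadenylases and poly(A)-binding proteins. Of 15 genes of these groups, 0 were 1.5-fold apart in either direction, a count near the background, since of genes of at least 10 RPM 3.62% were that much lower and 5.43% higher. The median was 0.08. Cnot6 was highest at 0.31, Cnot2 lowest at −0.44, and Pabpc1 had 729 RPM in the anti-miR and 627 RPM in the control library. The CAF1 deadenylase genes were Cnot7, with 50.3 RPM in the anti-miR and 41.1 RPM in the control library, and Cnot8, with 112 RPM in the anti-miR and 123 RPM in the control library. Btg2 transcripts per 1000 bases came to 1.13 times those of Cnot7 in the anti-miR and 2.73 times in the control library. Set against Cnot8, the more abundant of the pair, they came to 0.416 times in the anti-miR and 0.748 times in the control library.

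Genes that control CDK inhibitor turnover had a median of −0.00 over 12 genes, with 1 at least 1.5-fold higher and 0 lower, beside 10.8% and 8.56% of all genes. Skp2, the F-box protein that marks p27 for degradation, was the higher one, with 13.4 RPM in the anti-miR and 7.42 RPM in the control library, or 0.84 in log2, where genes of like level spanned −1.05 to 1.33. Rnf123, of the cytoplasmic ligase for p27, was lowest at −0.19, and Skp1 was the most abundant at −0.17.

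Btg2 is an immediate early gene, a class induced without new protein synthesis. Past 1.5-fold, 6 of 25 immediate early genes were lower and 3 higher, beside 8.56% and 10.8% of all genes. The median was −0.13, and 3 had a ratio as low as Btg2. Those were Nr4a2, an orphan nuclear receptor, at −2.17, Nr4a1 at −1.12 and Egr2 at −1.02. Ctgf, the most abundant, stood at −0.14 and Dusp2 was highest at 0.99. Whether the lower Btg2 and the lower immediate early genes share a source, such as handling of the cultures, was not tested, and with 1 library per group handling and knockdown cannot be told apart.

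**Figure D4:**
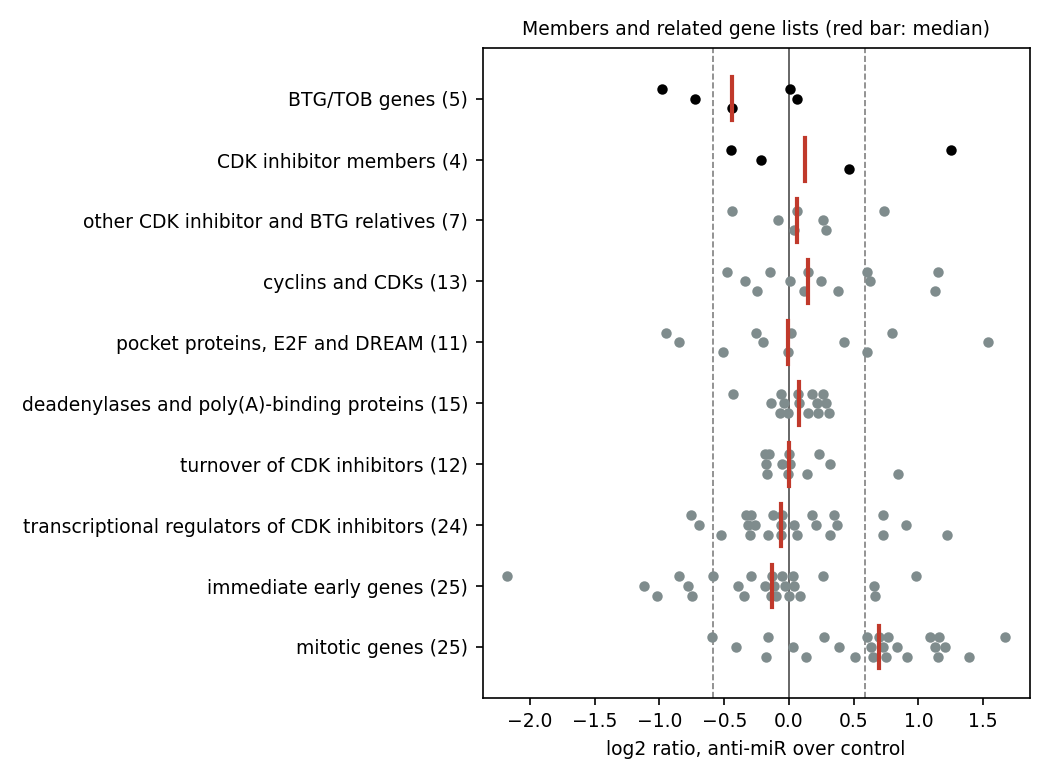
Log2 ratio of anti-miR over control for every gene of at least 1 RPM in the BTG/TOB genes and CDK inhibitors (black) and in related lists (grey), with the number of genes in brackets, red bars for medians and dashed lines at 1.5-fold. The BTG/TOB median is −0.44 and that of mitotic genes 0.70, while the deadenylase list lies around 0.08.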

How the data were processed

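Gene-level reads of 1 anti-miR and 1 control library were analysed. The deposited values are a signal per gene that the authors scaled so that both columns have the same total. Per the file headers, HOMER counted reads over exons of RefSeq transcripts on rn4, taking the strand opposite to each read and 1 transcript per gene. STAR 2.2.0c and CASAVA 1.8.2 are named per the submitters' processing notes. The scaling step and the handling of reads with several matches are not given in the sources used here. Whole reads were recovered from the signal, with 1 read worth 1.04 in the anti-miR and 0.962 in the control column, and 100% of values up to 400 reads were whole within 0.005. Depth was thus 14815846 reads on genes in the anti-miR and 16031780 in the control library.

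RPM is the signal per 1000000 of its column total, and RPKM divides it by the deposited transcript length. Ratios used a pseudocount of 0.1 RPM, genes needed a mean of 1 RPM, and intervals are exact (Clopper-Pearson for ratios, Poisson for levels, 95%). With 1 library per group there is no spread within a group and no p-value is given. The recovered reads were also put through an exact binomial test (Benjamini-Hochberg, 0.05), checked on simulated data, which called 5975 of 10365 genes, 2714 lower and 3261 higher. It compares the libraries, not the conditions. TMM (edgeR 4.0.16), median-of-ratios (DESeq2 1.42.0) and upper-quartile scaling were alternatives, with scipy 1.17.1 for intervals. All 9 member accessions matched the RefSeq gene table, which gave no coordinates for rn4. All members were named, and of each other list the highest and lowest ratio at 5 RPM or more and the most abundant gene per 1000 bases. Members, lists, alternatives and this rule were chosen with earlier results of these data known. The result of 1 further gene list is not reported here.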

Additional observations from a re-analysis of the deposited data

How the results depend on the processing

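No paired analysis was possible because each group has 1 library, and for the same reason no library could be left out. TMM, median-of-ratios and upper-quartile scaling moved log2 ratios by −0.02, −0.02 and 0.04, and kept 2 genes at least 1.5-fold lower and 1 higher. Btg2 ranged from −1.01 to −0.94 over these scalings, Tob1 from −0.75 to −0.68, and Btg3 from −0.02 to 0.05, changing sign. At a fold of 2 the count lower was 0, with Btg2 at −0.98, but Btg2 passes that fold under TMM and median-of-ratios scaling, at −1.01 in both. The exact binomial test on reads gave 5 members lower and 2 higher, beside 26.2% and 31.5% of all genes, since it has no minimum fold. The members were picked from these values, so that count supports nothing. With a floor of 10 RPM the count higher was 0 and the CDK inhibitor median became −0.21, both because Cdkn1c drops out. With that floor the median of erythroid and glial markers became −0.12, from 1.13 at the lower floor, with S100b alone left. Of the other alternatives tried, 34 for the members' counts and medians and 74 for single genes and lists kept their value. Kept means a count within 1.5 times, or a single gene's ratio inside its counting interval. For a median, it means a value between the medians of its genes' lower and upper interval ends, which is not that median's counting error. By this measure the members' median was kept at the floor of 10 RPM, though it went from −0.21 to −0.33. The median of fibroblast markers under TMM went outside that range, from 0.03 to 0.01. The median of epicardial markers turned from −0.26 to 0.34 at the higher floor. Scarce Cdkn1c, with 29 reads in the control library, is the member that depth limits most.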

Other observations

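Among transcription factors and chromatin regulators known to act on CDK inhibitor genes, 4 of 24 above 1 RPM stood 1.5-fold or more above the control library in the anti-miR library and 2 as far below it. Of all genes 10.8% were higher and 8.56% lower, so the count lower is near the background, and the median log2 ratio was −0.06. Ezh2, the Polycomb methyltransferase, was highest, with 17.0 RPM in the anti-miR and 7.24 RPM in the control library, a ratio of 2.35 (1.88 to 2.95), although its log2 ratio of 1.22 lay inside its like-level range of −0.98 to 1.26. Id1, an inhibitor of basic helix-loop-helix factors, was lowest, with 26.9 RPM in the anti-miR and 45.6 RPM in the control library, and Id3, the most abundant, had 214 RPM in the anti-miR and 257 RPM in the control library. Klf4, Myc, Hes1 and Mxd4 were chosen after their values were seen. Klf4 had 89.8 RPM in the anti-miR and 145 RPM in the control library at −0.69. Myc had 44.7 RPM in the anti-miR and 27.0 RPM in the control library at 0.73, and Hes1, a Notch target, had 30.4 RPM in the anti-miR and 16.2 RPM in the control library at 0.90. Mxd4, the other gene past 1.5-fold higher, had 54.5 RPM in the anti-miR and 32.9 RPM in the control library at 0.72. Over the list, 11 genes had a ratio above 1 and 13 had one below it. No relation between the genes of this list and the CDK inhibitors was tested.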
